A study of Mus musculus with 9 samples.

Results

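A group of 20 genes had a transcript level that was high in naive B cells, low in antigen-specific activated B cells and high again in plasma cells. They were chosen by values of these same libraries, among the 29995 genes of a table without immunoglobulin (Ig) genes, on their group mean TPM (kallisto's transcript abundance, corrected for transcript length and scaled to a fixed sum). A member had a mean of at least 5 TPM in naive B cells and in plasma cells. Each of these means, plus 1, was at least 2.5 times the mean plus 1 in NP-specific B cells, and the highest NP-specific B cell library lay below all 6 other libraries. Sdc1, which encodes the plasma cell surface protein CD138 used in the sort, met the rule and was left out. The dip of a gene, as used here, is the smaller of the 2 ratios over NP-specific B cells, each with 1 TPM added to both means. Since these values chose the members, the low level in NP-specific B cells is described without a test.

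All 3 groups came from the spleens of B6.Blimp1+/GFP mice, which carry 1 reporter allele that marks transcription of Prdm1 (Blimp1) with green fluorescent protein (GFP). The mice were 12 weeks old and had been given 50 µg NP-LPS, a hapten coupled to bacterial lipopolysaccharide, 4 days earlier, so the naive B cells were also taken from immunised animals and no group came from an unimmunised mouse. Naive B cells were sorted as IgD high, B220+ and NP-, NP-specific B cells as IgD-, B220+, NP+, GFP- and CD138-, and plasma cells as IgD-, NP+, GFP+ and CD138+. By the paper's account, all 3 groups were also gated as negative for markers of T cells, macrophages and erythroid cells. The cells were sorted 2 times. Each group had 3 libraries. The study's account can be read as saying that NP-binding cells of both kinds came from the same 3 mice, so these 2 groups may not come from independent animals, and no source used here says which libraries share a mouse. The comparison asks how transcript levels change from the resting cell through activation to the antibody-secreting cell.

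Most B cells that meet antigen leave the resting state, grow and divide, and a part of them becomes plasma cells, which enlarge the endoplasmic reticulum (ER) and secrete antibody. Immediate-early genes are transcribed within minutes of a signal from preformed factors. Many of their products are transcription factors, such as Jun and Fos of the AP-1 family, or feedback inhibitors that shorten the signal, such as the RNA-decay factor Zfp36 and the MAP kinase phosphatases of the Dusp family. A gene with its lowest level in the middle of this sequence is one that a view of only its start and end would miss. In these libraries the same rule with naive B cells as the low group selected 236 genes, and with plasma cells as the low group 1020 genes. These counts depend on the scale of the plasma cells, with 376 and 684 under median-of-ratios scaling and 77 and 5407 with the Ig genes kept, where the NP-specific B cell rule gave 36 and 22. Among 7412 genes with naive and plasma cell means of at least 5 TPM, the NP-specific B cell mean was the lowest of the 3 in 1581 (21.3%), and all NP-specific B cell libraries lay below all others in 568 (7.66%).

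The libraries held an estimated 20.2 M to 38.6 M (mega) reads. In naive B cells, NP-specific B cells and plasma cells, in that order, summed TPM of 8 B cell markers was 37349 to 40515, 25782 to 26490 and 6648 to 7377, and that of 6 plasma cell markers was 143 to 167, 192 to 206 and 6103 to 7422, so the labelled cell types carried their markers. The 18 markers of cycling cells summed to 307 to 349, 1977 to 2700 and 1506 to 1901 TPM. Plasma cell replicate 3 held hepatocyte transcripts at a sum of 6381 TPM, against 23.2 and 27.0 in the other plasma cell libraries and 2.76 to 6.24 elsewhere. Without that library all 20 members still met the rule. Marker sums of T cells, NK cells, macrophages, neutrophils, dendritic cells, erythroid cells, platelets and stromal cells were not lower in every NP-specific B cell library than in all the others, as the members were. Some of these sums were higher in NP-specific than in naive B cells. In the same order of groups, sums were 12.8 to 14.1, 69.8 to 87.2 and 40.7 to 132 TPM for 12 macrophage or monocyte markers and 43.9 to 52.1, 83.4 to 121 and 21.1 to 50.1 TPM for 12 erythroid markers. Markers of B cell subsets moved too. Sums were 2045 to 2181, 789 to 949 and 26.7 to 38.8 TPM for follicular B cells. For marginal zone or B1 B cells they were 1123 to 1177, 2016 to 2341 and 356 to 391 TPM. In that list, the mean of Plac8 was 571 TPM in naive and 1479 TPM in NP-specific B cells. The means of Cr2 (326 and 154 TPM) and Dtx1 (84.3 and 65.0 TPM) fell, and no other mean of the list did. Germinal centre B cell markers had median sums of 57.9, 289 and 10.4 TPM. The sort gates left out cells positive for T cell, macrophage or erythroid surface markers. The part of all these cell types and subsets in the members' levels was not tested. In bulk RNA, fewer cells of a type and less RNA per cell cannot be told apart.

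Of the 20 members, 15 are protein-coding genes in the GENCODE M21 annotation of GRCm38, 2 are annotated as Ig light chain variable genes (Gm17472 and Gm20730), 2 are pseudogenes (Eif4a-ps4 and Gm10040) and 1 (Gm9769) matched no gene of that annotation. Over the 15 protein-coding members the median ratio over NP-specific B cells, with 1 TPM added, was 2.99 in naive B cells (range 2.5 to 6.91). It was 4.92 in plasma cells (2.85 to 17.9). With the Ig genes kept in the table, these medians were 3.07 and 1.69, and the lowest plasma cell ratio was 0.939. Without the Ig genes, the summed level of the 15 members was 814 to 860 TPM in naive libraries. It was 242 to 272 TPM in NP-specific B cell libraries and 1692 to 1869 TPM in plasma cell libraries. They encode signal-response factors, factors of protein folding or ubiquitination, membrane and vesicle proteins, and 2 nuclear or metabolic proteins.

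**Figure D1:**
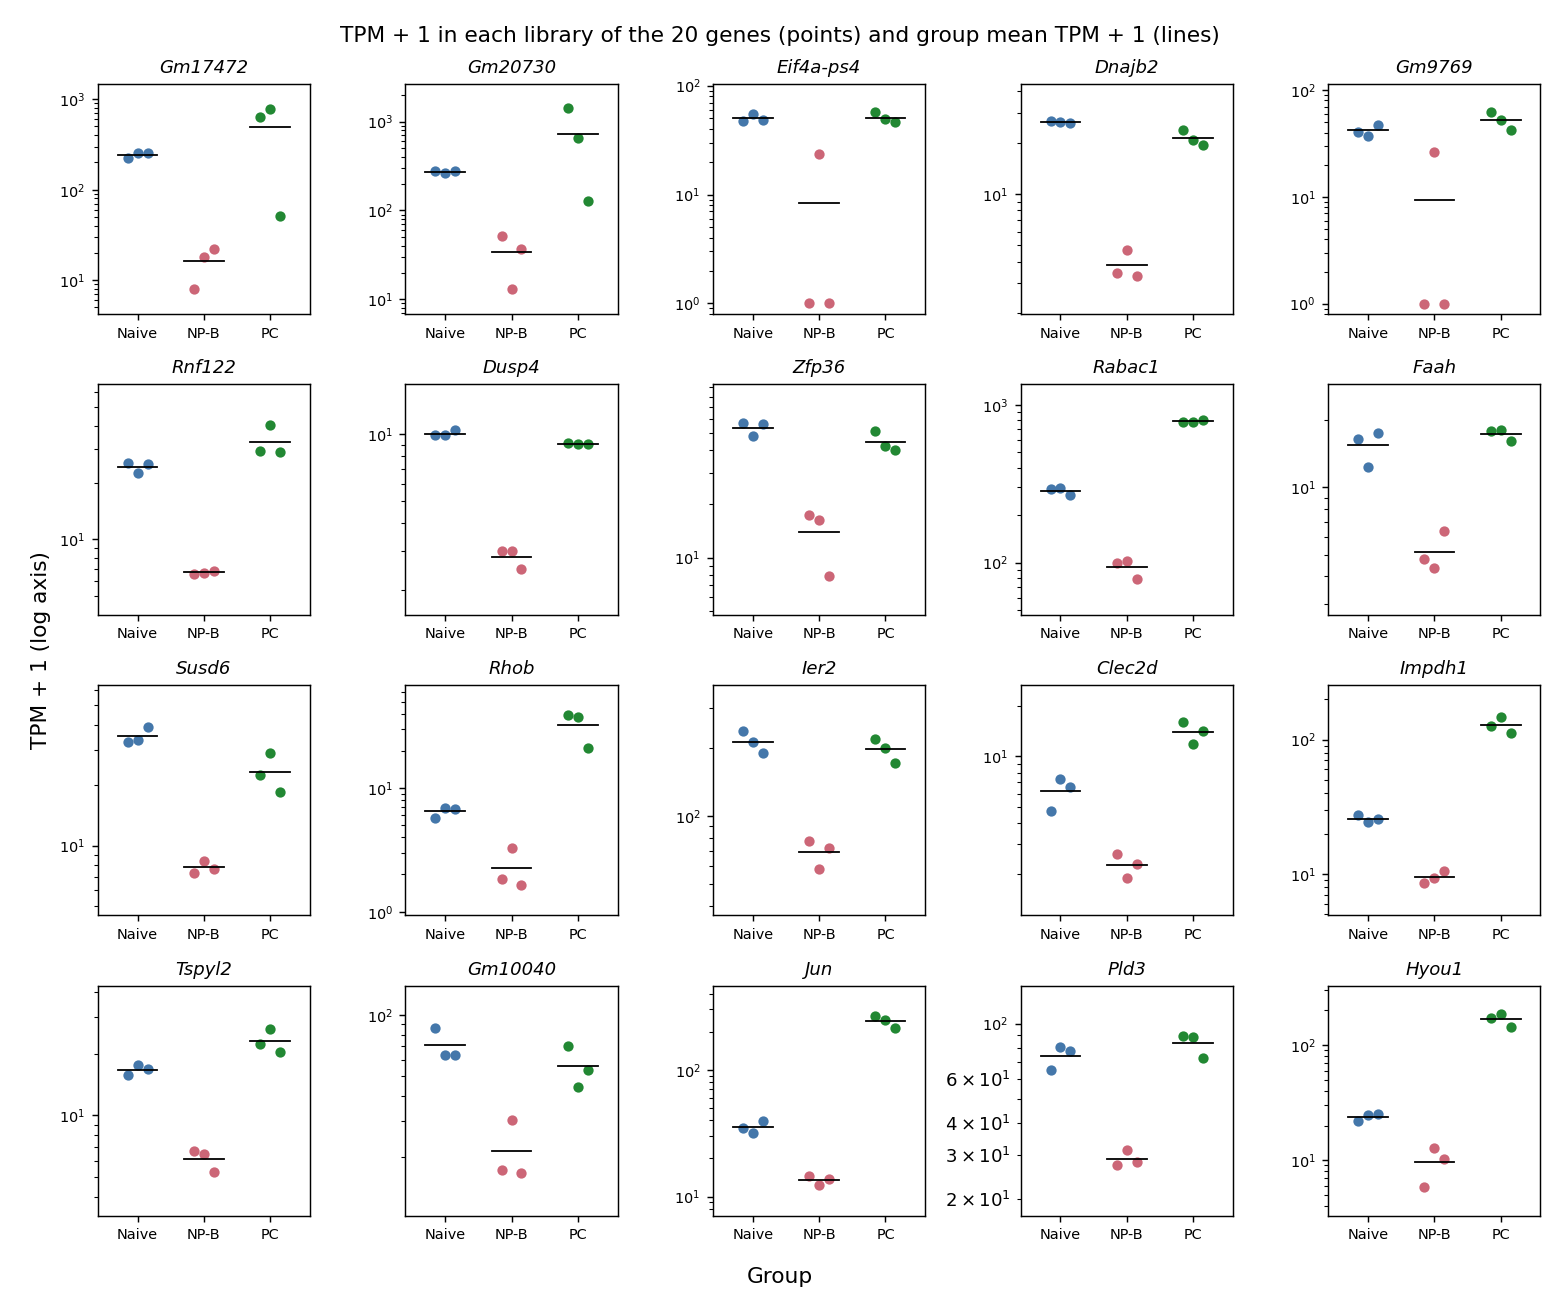
TPM + 1 on a log axis in each of the 9 libraries (points) with the group mean TPM + 1 (lines) for the 20 genes, ordered by dip. Every gene has its 3 NP-specific B cell (NP-B) points below all naive and plasma cell (PC) points, and Eif4a-ps4 and Gm9769 have 2 NP-B libraries at 0 TPM and 1 above 20.

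The signal-response genes were 5 members. Jun, the AP-1 subunit that pairs with Fos proteins (chr4:95049034-95052222, minus strand), had 33.9, 30.7 and 38.4 TPM in naive libraries, 13.6, 11.3 and 12.7 TPM in NP-specific B cell libraries and 264, 247 and 213 TPM in plasma cell libraries. With 1 TPM added to each mean, its naive mean was 2.61 times the NP-specific B cell mean and its plasma cell mean 17.9 times, and no libraries of the 3 groups overlapped. Rhob, a small GTPase of endosomes and the actin cytoskeleton (chr12:8497661-8500009, minus strand), had 4.73, 5.87 and 5.79 TPM in naive libraries, 0.837, 2.25 and 0.645 TPM in NP-specific B cell libraries and 37.8, 36.2 and 19.9 TPM in plasma cell libraries. It was the member with the lowest mean in NP-specific B cells (1.24 ± 0.877 TPM, SD, n = 3), and its libraries spread 3.49-fold there.

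Ier2, a nuclear immediate-early protein (chr8:84661331-84662852, minus strand), had 236, 213 and 188 TPM in naive libraries, 76.4, 57.5 and 71.1 TPM in NP-specific B cell libraries and 219, 200 and 170 TPM in plasma cell libraries. Zfp36, which encodes tristetraprolin, a protein that binds AU-rich elements and speeds decay of the mRNA (chr7:28376784-28380253, minus strand), had 55.7, 46.9 and 55.0 TPM in naive libraries, 16.4, 15.4 and 6.94 TPM in NP-specific B cell libraries and 50.1, 41.1 and 39.3 TPM in plasma cell libraries. In both genes the naive and plasma cell libraries overlapped, unlike Jun and Rhob, in which every plasma cell library lay above every naive library. Dusp4, a nuclear phosphatase that switches off MAP kinases (chr8:34807297-34819894, plus strand), had 8.91, 8.92 and 9.42 TPM in naive libraries, 1.98, 2.00 and 1.5 TPM in NP-specific B cell libraries and 8.11, 8.01 and 8.08 TPM in plasma cell libraries. Its plasma cell values were the tightest of any member (SD 0.0551 TPM, n = 3).

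The promoters of Jun, Rhob and Zfp36 are shown as those of members in the immediate-early list that had a RefSeq window. The rule selected their low point, and their plasma cell levels relative to naive B cells differed. Promoter windows were taken from RefSeq for GRCm38.p6, from 250 bases before to 50 after the start, and 11 of the 20 members matched, with 13 windows. The 120 bases before the start of each of the 3 genes are printed 5′ to 3′ on the gene's strand, with CCAAT boxes (CCAAT or ATTGG) in capitals in Jun and Rhob and a CArG box, the site of serum response factor, in capitals in Zfp36. They are chr4:95052223-95052342, chr12:8500010-8500129 and chr7:28379229-28379348, all on the minus strand.
Jun: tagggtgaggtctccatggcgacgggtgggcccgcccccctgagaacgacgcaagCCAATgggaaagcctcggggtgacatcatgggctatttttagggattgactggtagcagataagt
Rhob: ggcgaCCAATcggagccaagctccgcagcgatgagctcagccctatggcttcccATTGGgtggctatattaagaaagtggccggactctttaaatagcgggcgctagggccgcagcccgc
Zfp36: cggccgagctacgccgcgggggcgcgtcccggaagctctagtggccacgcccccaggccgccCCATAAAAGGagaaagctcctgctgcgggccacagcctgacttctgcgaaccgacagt

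The CCAAT box lay 65 bases before the start in Jun and 115 and 66 bases before it in Rhob. Across the members it was in 4 of 13 windows (30.8%; Jun, Rhob, Clec2d and Tspyl2), against 38.4% of 11311 windows of tested genes and 37.4% of all 32851 windows. The CArG box of Zfp36 lay 58 bases before its start, the only such match among the members, against 1.29% of the windows of tested genes. A GC box (GGGCGG on either strand) was in 12 of 13 member windows (92.3%), against 60.5% of windows of tested genes and 35.7% of all windows, and it was absent only from Clec2d. The letters of the AP-1 element (TGANTCA), the cAMP response element (TGACGTCA), the forkhead element (GTAAACA), the E-box (CACGTG) and the TATA box (TATAAA) were in none of the 13 windows on either strand. Only these exact letters were searched, so a site with variant letters was not counted. The printed Jun window holds tgacatca, which resembles the cAMP response element without matching its letters. These matches are descriptions of letters in short windows, and GC boxes are common in promoters of expressed genes.

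A list of 37 immediate-early genes places these members among their kind. It holds 4 of them (Jun, Rhob, Ier2 and Zfp36), whose calls in the next counts the rule itself fixed. Of 30 list genes that passed the filter on low values, 12 were lower in NP-specific than in naive B cells and 2 were higher (limma, adjusted p under 0.05 and over 2-fold), where 10.4% and 8.13% of the 12892 genes tested were called (18.5% in either direction). The median log2 change was -0.89 over the 30 list genes and -0.16 over all genes tested. Of the same 30, 10 were higher in plasma cells than in NP-specific B cells and 7 were lower, against 9.93% and 22.3% of all genes tested (32.2% in either direction). The medians there were 0.12 for the list and -0.30 for all genes tested. The 2 comparisons share the NP-specific B cell libraries, and with the Ig genes kept in the table the second count was 4 higher and 14 lower, where 3.41% and 59.7% of 12324 genes tested were called.

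The AP-1 genes of the list did not follow Jun as a family. Jund had 15.3 ± 2.83 TPM in naive B cells, 116 ± 72.6 TPM in NP-specific B cells and 15.4 ± 2.5 TPM in plasma cells (SD, n = 3 each), a peak where Jun had its low point, with a wide spread between the NP-specific B cell libraries. Fos had 33.1 ± 3.99, 39.9 ± 4.54 and 657 ± 13.3 TPM, so it matched Jun in the plasma cells but not in NP-specific B cells, where its mean was no lower than in naive B cells. Junb had 262 ± 13.8, 140 ± 31.3 and 62.9 ± 3.93 TPM, and its first step (log2 change -0.94) was under 2-fold. Among other list genes, the orphan receptor gene Nr4a1 fell from 26.4 ± 2.47 to 2.68 ± 1.44 and then to 0.324 ± 0.0570 TPM, with no return in plasma cells. Egr1, a zinc-finger immediate-early factor, had 33.9 ± 1.05, 23.6 ± 4.93 and 103 ± 10.5 TPM. Per1, the clock gene that also responds to signals, fell from 11.7 ± 2.85 to 2.52 ± 0.824 TPM and rose to 6.69 ± 0.933 TPM.

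Protein folding or ubiquitination was the role of 3 members. Dnajb2, a J-domain co-chaperone that hands ubiquitinated clients to the proteasome (chr1:75236406-75245692, plus strand), had 25.6, 25.5 and 24.9 TPM in naive libraries, 2.43, 3.71 and 2.29 TPM in NP-specific B cell libraries and 22.7, 19.7 and 18.4 TPM in plasma cell libraries. It had the largest dip of the protein-coding members (5.59), and its lowest library outside NP-specific B cells was 4.96 times the highest one within. Rnf122, a membrane RING-finger ubiquitin ligase (chr8:31111820-31131482, plus strand), had 24.3, 21.5 and 24.1 TPM in naive libraries, 5.57, 5.68 and 5.83 TPM in NP-specific B cell libraries and 28.3, 39.4 and 28.1 TPM in plasma cell libraries. Its 3 NP-specific B cell libraries differed by only 1.05-fold.

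Hyou1, an ER chaperone of the Hsp70 family that serves BiP as a nucleotide exchange factor (chr9:44379490-44392369, plus strand), had 20.9, 23.6 and 24.3 TPM in naive libraries, 4.85, 11.7 and 9.15 TPM in NP-specific B cell libraries and 172, 184 and 144 TPM in plasma cell libraries. It had the smallest dip of all members (2.5), just inside the rule, and its naive level was far nearer to NP-specific B cells than to plasma cells. It was the only member among 54 ER and secretory genes. Of these 54, 4 were lower in NP-specific than in naive B cells (Hyou1, Kdelr1, Wfs1 and Fkbp14) and 5 were higher (Creld2, Sdf2l1, Derl3, Ssr2 and Sec24d), which is 7.41% and 9.26% of the list beside 10.4% and 8.13% of all genes tested. The 4 became 2 with median-of-ratios scaling, with log2(TPM + 1) without weights and on leaving out either naive replicate 3 or replicate 1 of the NP-specific B cells. The calls of Hyou1 in these counts and the next were fixed by the rule. In plasma cells 51 of the 54 were higher than in NP-specific B cells, 0 were lower, where 9.93% and 22.3% of all genes tested were called, and the median log2 change was 2.96 against -0.30 over all genes tested. With the Ig genes kept in the table, 37 of the 54 were higher and 0 lower. Of 12324 genes tested there, 3.41% were called higher and 59.7% lower. Kdelr1, a receptor that returns ER proteins from the Golgi, had means of 10.4, 4.87 and 55.8 TPM in naive B cells, NP-specific B cells and plasma cells, and Wfs1, an ER membrane protein, 3.88, 1.25 and 18.7 TPM.

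Membrane and vesicle proteins made up 5 members. Rabac1, which binds prenylated Rab GTPases at the Golgi (chr7:24969752-24972754, minus strand), was the most abundant member, with 293, 296 and 266 TPM in naive libraries, 99.1, 101 and 77.8 TPM in NP-specific B cell libraries and 781, 775 and 802 TPM in plasma cell libraries. Pld3, a nuclease of lysosomes that degrades single-stranded nucleic acid (chr7:27532000-27553218, minus strand), had 64.2, 79.3 and 76.5 TPM in naive libraries, 26.2, 30.3 and 27.0 TPM in NP-specific B cell libraries and 88.0, 87.4 and 72.1 TPM in plasma cell libraries. Rabac1 separated all 3 groups, while for Pld3 the naive and plasma cell libraries overlapped.

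Susd6, a sushi-domain membrane protein listed under its older name 4933426M11Rik (chr12:80790510-80880835, plus strand), had 31.8, 32.7 and 37.8 TPM in naive libraries, 6.33, 7.40 and 6.69 TPM in NP-specific B cell libraries and 21.6, 27.9 and 17.5 TPM in plasma cell libraries. Faah, the hydrolase that degrades anandamide and related fatty acid amides (chr4:115967145-116017926, minus strand), had 15.5, 11.3 and 16.5 TPM in naive libraries, 3.79, 3.34 and 5.35 TPM in NP-specific B cell libraries and 16.9, 17.0 and 15.2 TPM in plasma cell libraries. For Susd6 every plasma cell library lay below every naive one, while the naive and plasma cell libraries of Faah overlapped. Clec2d, a lectin-like ligand of NKR-P1 receptors on NK cells (chr6:129180615-129186534, plus strand), had 3.70, 6.34 and 5.58 TPM in naive libraries, 1.62, 0.891 and 1.29 TPM in NP-specific B cell libraries and 14.9, 10.9 and 13.1 TPM in plasma cell libraries. Clec2d rests on the fewest reads of the protein-coding members, an estimated 28.0 to 52.0 in the NP-specific B cell libraries. Of the 31-base words in its transcript, 11.8% also occur in other genes, among them Clec2i, which had 146 ± 15.9, 27.5 ± 4.01 and 4.89 ± 1.02 TPM in the 3 groups, lowest in plasma cells.

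The other coding members act in the nucleus or in nucleotide synthesis. Impdh1, which makes the committed step to guanine nucleotides (chr6:29200434-29216364, minus strand), had 26.5, 23.3 and 24.7 TPM in naive libraries, 7.54, 8.39 and 9.51 TPM in NP-specific B cell libraries and 125, 147 and 111 TPM in plasma cell libraries. Tspyl2, a nuclear protein of the nucleosome assembly family (chrX:152336852-152342425, minus strand), had 14.8, 16.6 and 15.8 TPM in naive libraries, 5.72, 5.50 and 4.28 TPM in NP-specific B cell libraries and 21.3, 25.4 and 19.4 TPM in plasma cell libraries. In both genes every plasma cell library was above every naive library, by a small margin in Tspyl2 and a wide one in Impdh1.

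The 5 remaining members share sequence with other transcripts or lack an annotation, and their levels are uncertain. Eif4a-ps4 (chr1:60703932-60705149, plus strand), a processed pseudogene of the translation initiation helicase Eif4a1, was listed with 46.1, 53.7 and 47.1 TPM in naive libraries, 0, 22.3 and 0 TPM in NP-specific B cell libraries and 55.9, 48.4 and 45.1 TPM in plasma cell libraries. Eif4a1 itself had 217 ± 24.6, 213 ± 14.7 and 186 ± 15.1 TPM, with no low point. Aligned over 1218 bases, the pseudogene differed from an Eif4a1 transcript at 1 base, G534A, with the parent's base first and positions counted from 1 at the pseudogene's 5′ end, and 97.4% of its 31-base words occur in Eif4a1. The 61 bases around it, positions 504 to 564 of the pseudogene, are shown with that base in capitals, because it is the only aligned base by which reads of the 2 genes differ.
Eif4a1: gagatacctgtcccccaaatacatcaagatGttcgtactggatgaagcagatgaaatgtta
Eif4a-ps4: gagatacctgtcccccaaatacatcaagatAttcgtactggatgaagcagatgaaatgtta

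Gm9769, with no annotation, was listed with 39.7, 36.5 and 46.4 TPM in naive libraries, 0, 25.1 and 0 TPM in NP-specific B cell libraries and 61.3, 51.6 and 41.5 TPM in plasma cell libraries. Its 2 libraries at 0 were the same 2, replicates 1 and 3, as for Eif4a-ps4. Gm10040, a pseudogene (chr3:68733137-68738077, plus strand), had 84.8, 62.3 and 62.5 TPM in naive libraries, 16.3, 29.3 and 15.7 TPM in NP-specific B cell libraries and 69.3, 43.3 and 52.5 TPM in plasma cell libraries. It shares 88.2% of its 31-base words with other genes, chiefly Gm9864, which had 55.0 ± 15.1, 18.7 ± 4.29 and 28.6 ± 12.8 TPM.

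Gm17472 (chr6:42980690-42981150, plus strand) had the largest dip of all members (15.2), with 225, 252 and 254 TPM in naive libraries, 7.0, 16.9 and 21.4 TPM in NP-specific B cell libraries and 628, 786 and 50.2 TPM in plasma cell libraries. Gm20730 (chr6:43081518-43082097, minus strand) had 278, 263 and 278 TPM in naive libraries, 51.1, 12.0 and 36.1 TPM in NP-specific B cell libraries and 1408, 649 and 126 TPM in plasma cell libraries. For both, plasma cell replicate 3 was far below the other plasma cell libraries and also below the naive ones. In the table with the Ig genes kept, neither gene was above 1 TPM in any library, so the pattern existed only where 322 Ig genes had been left out. Of their 31-base words, 6.21% of Gm17472 and 39.2% of Gm20730 occur in those left-out genes, among them Igkv10-95 and Igkv2-137.

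Members just inside the fold threshold were Hyou1 (dip 2.5) and Pld3 (2.57). The genes just outside it were Dennd5b, with means of 26.1, 9.94 and 71.7 TPM in naive B cells, NP-specific B cells and plasma cells and a dip of 2.47, and Pdk2, with 14.3, 5.08 and 13.7 TPM and a dip of 2.42.

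**Figure D2:**
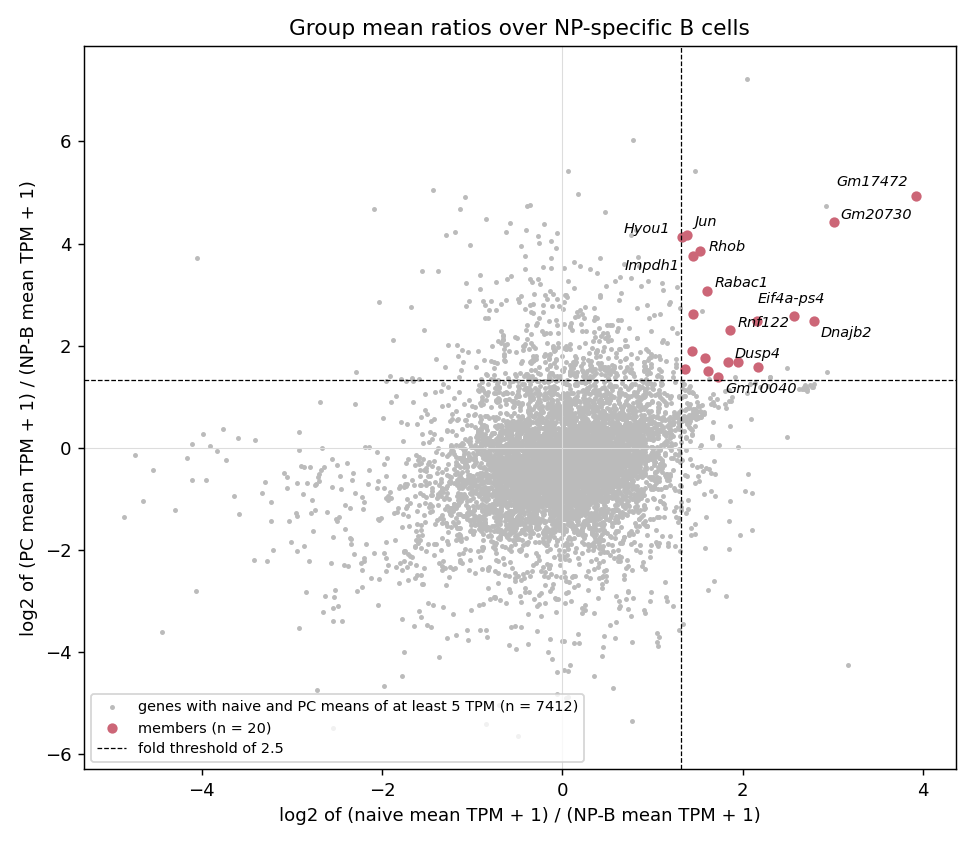
Log2 ratios of group means over NP-specific B cells, naive on the x axis and plasma cells (PC) on the y axis, each mean plus 1 TPM, for 7412 genes (grey) and the 20 members (red). The members sit above and to the right of both dashed lines at a fold of 2.5, and Hyou1, Jun, Rhob and Impdh1 have far higher plasma cell than naive ratios.

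The level in plasma cells relative to naive B cells was not set by the rule directly, but the rule limited it. Plasma cell means had to be at least 2.5 times those of NP-specific B cells, so, with 1 TPM added, a fall of over 2-fold below the naive level was open only to the 4 members with a naive ratio of 5 or more (Gm17472, Gm20730, Eif4a-ps4 and Dnajb2). By limma on the log2 scale, 6 of the 20 were higher in plasma cells than in naive B cells and 0 were lower, at an adjusted p under 0.05 and over 2-fold. Of all 12892 genes tested, 11.4% were called higher and 26.3% lower (37.8% in either direction), and given that limit the count of 0 is not read against the 26.3%. At an unadjusted p under 0.05 and without a minimum fold, 8 members were higher and 2 (Susd6 and Dnajb2) were lower, and limma on log2(TPM + 1) without weights also called 0 lower. The median log2 change was 0.29 over the members and -0.47 over all genes tested. The rule limited rises too, since naive means also had to be at least 2.5 times those of NP-specific B cells. With 1 TPM added, a rise of over 2-fold was open only to members with a plasma cell ratio of 5 or more. Neither this median nor the count of 6 is therefore read against the values over all genes.

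Hyou1 changed by 2.82 ± 0.19 (log2, SE; adjusted p = 3.9e-07) and Jun by 2.79 ± 0.13 (adjusted p = 1.8e-08). Rhob changed by 2.36 ± 0.31 (adjusted p = 7.4e-05), Impdh1 by 2.32 ± 0.14 (adjusted p = 1.5e-07), Rabac1 by 1.46 ± 0.10 (adjusted p = 3.1e-07) and Clec2d by 1.25 ± 0.23 (adjusted p = 0.00066). In the table with Ig genes kept, Rabac1 changed by 0.24 (adjusted p = 0.070) and Clec2d by 0.14 (adjusted p = 0.59), so the calls of both ended. The other 4 kept their calls there with smaller log2 changes, 1.61 for Hyou1, 1.57 for Jun, 1.19 for Rhob and 1.11 for Impdh1. The 6 genes span an AP-1 subunit, an ER chaperone, a GTPase, a nucleotide enzyme, a Golgi protein and a surface lectin. The other 14 had log2 changes from -0.63 for Susd6 to 0.83 for Gm20730. Of these, Susd6, Rnf122 and Tspyl2 passed the adjusted p but not the fold, with adjusted p of 0.0075, 0.034 and 0.023. For the others a difference was not detectable with 3 libraries a group, which does not show that naive and plasma cell levels were equal. In plain ranges, 8 members had every plasma cell library above every naive library and 3 had every naive library above every plasma cell library. Of the tested genes, 21% and 48.7% did. The rule limited the level of plasma cells relative to naive B cells, so neither count is read against these shares.

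**Figure D3:**
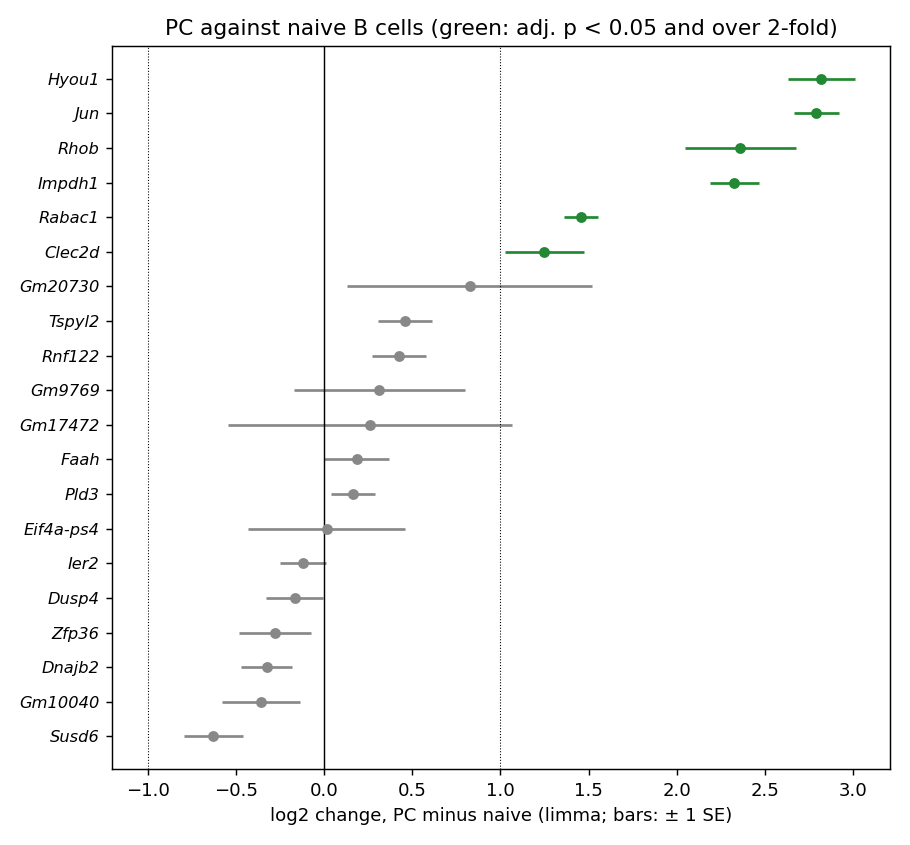
Log2 change of plasma cells (PC) minus naive B cells with 1 SE for the 20 members, in green where the adjusted p is under 0.05 and the change over 2-fold. Hyou1, Jun, Rhob, Impdh1, Rabac1 and Clec2d lie above 1, and no member lies below -1.

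Of the 15 protein-coding members, only Rabac1 kept a dip of at least 2.5 both with the Ig genes kept and under median-of-ratios scaling. From the table with Ig genes to the one without, the TPM of other genes rose by a median factor of 3.33 to 3.60 in plasma cell libraries, 1.11 to 1.13 in those of NP-specific B cells and 1.07 in naive libraries. The 322 Ig genes held 57.5% to 62.3% of the listed TPM in plasma cell libraries, which alone would give a factor of 2.35 to 2.66, and 5.78% to 6.95% in those of NP-specific B cells, which would give 1.06 to 1.07. The listed TPM of plasma cell libraries also summed to less in the table with Ig genes (671550 to 699885) than in the one without (945500 to 951969), and the source of that gap was not tested. In the table with Ig genes kept, all 15 were still lower in NP-specific than in naive B cells, by a ratio of 2.59 to 7.03 with 1 TPM added. The plasma cell ratio fell to a median of 1.69 (0.939 to 5.84). Jun, Hyou1, Rhob, Impdh1 and Rabac1 had a dip of at least 2.5 there. Ier2 and Pld3 were slightly lower in plasma cells than in NP-specific B cells (ratios 0.939 and 0.966), and the libraries of these 2, Zfp36, Susd6 and Faah overlapped between the groups. With those genes kept, 4 members (Jun, Hyou1, Rhob and Impdh1) were higher in plasma cells than in naive B cells and 7 (Dnajb2, Dusp4, Zfp36, Susd6, Ier2, Gm10040 and Pld3) were lower, where 4.47% and 64.5% of 12324 genes tested were called. Median-of-ratios scaling of the table without Ig genes took the dip of 7 members below 2.5, namely Hyou1 (2.13), Pld3 (2.20), Jun (2.22), Impdh1 (2.32), Tspyl2 (2.33), Clec2d (2.39) and Rhob (2.49), while no NP-specific B cell library of the 15 overlapped the other groups.

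**Figure D4:**
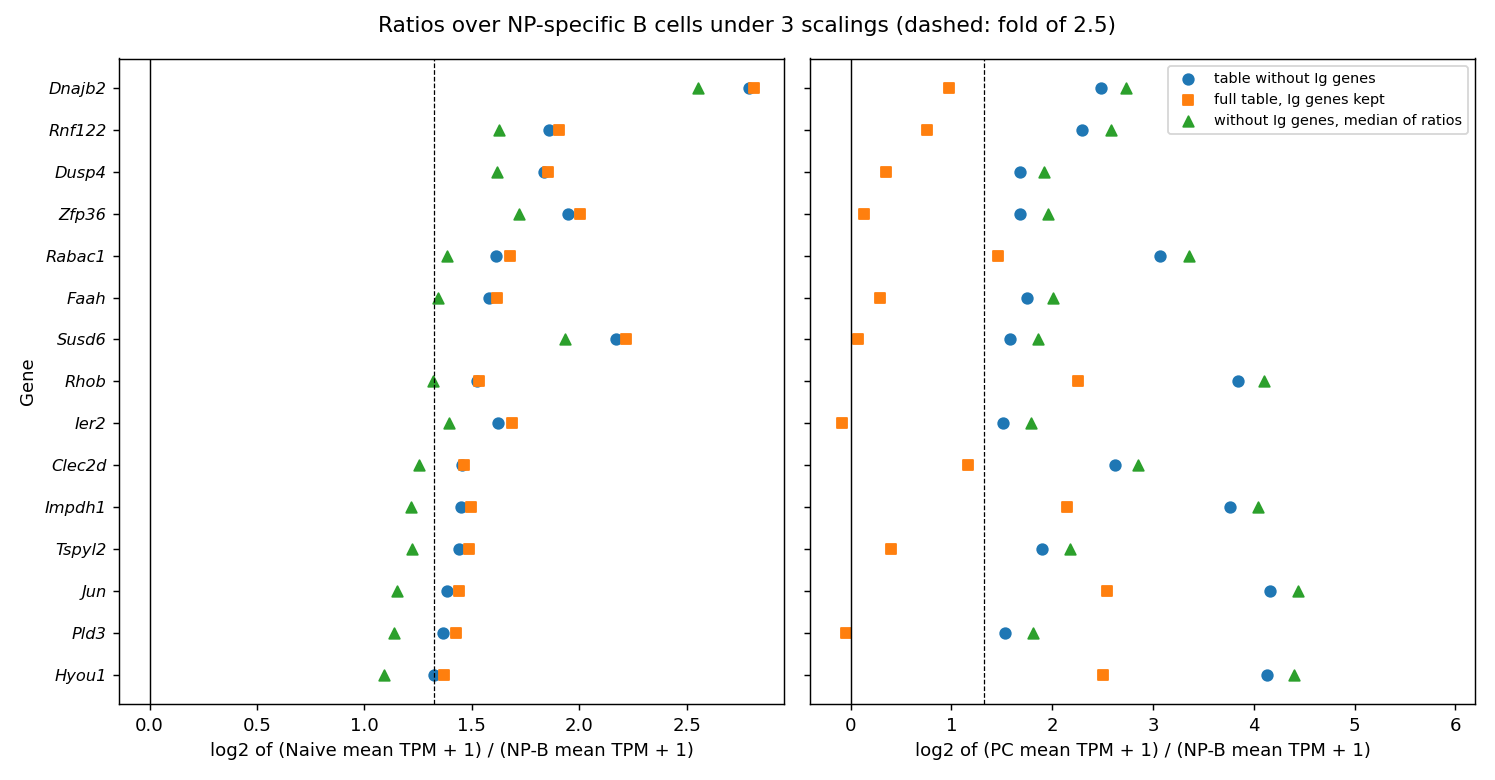
Log2 ratios of naive (left) and plasma cell (PC, right) means over NP-specific B cells for the 15 protein-coding members, each mean plus 1 TPM, under 3 scalings. The naive ratios stay between 2.13 and 7.03 under all 3, while in the full table the plasma cell ratios of Ier2 and Pld3 fall to 0.939 and 0.966.

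Values of library complexity are given beside the result, and its part in the result was not tested. Genes above 0 TPM numbered 24196 to 25169 in naive libraries, 19288, 22176 and 18372 in NP-specific B cell libraries and 22811, 19978 and 21919 in plasma cell libraries. The low group therefore held the 2 libraries with the fewest genes, although it had the most reads, an estimated 34.9 M to 38.6 M against 28.5 M to 31.7 M in naive and 20.2 M to 22.1 M in plasma cell libraries. Next, genes were taken for which the lower of the means of the 2 other groups was 5 to 10 TPM. Of these, 0.0587% to 0.117% were at 0 in NP-specific B cell libraries, 0.121% to 0.242% in naive and 0.190% to 0.507% in plasma cell libraries. None of the 15 protein-coding members was at 0 in any library, and in NP-specific B cells they rested on an estimated 28.0 to 3240 reads (median 623).

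NP-specific B cell replicate 2 held more genes above 0 than plasma cell replicates 2 and 3. The rule required every member to be lower in it than in these libraries. For the 15 protein-coding members the log2 difference was at least 1.36 (median 2.14) against plasma cell replicate 2. It was at least 1.14 (median 2.04) against replicate 3. The rule also set a minimum fold on the group means, so the size of these differences carries no information on the part of library complexity. The lowest of the NP-specific B cell libraries was replicate 1 for 5 of the 15, replicate 2 for 4 and replicate 3 for 6. Their geometric mean of TPM + 1 was 8.99, 9.69 and 8.58 in replicates 1, 2 and 3. Without replicate 2 the rule selected 56 genes, against 26 without replicate 1 and 22 without replicate 3. Replicate 2 also held neutrophil markers at a sum of 50.4 TPM, mainly S100a8 (24.7 TPM) and S100a9 (23.9 TPM). That sum was 1.01 and 1.84 TPM in the other NP-specific B cell libraries and 6.16 to 34.7 TPM in plasma cell libraries. The part of such cells in these counts was not tested. Eif4a-ps4 and Gm9769 were at 0 in just the 2 libraries with the fewest genes.

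**Figure D5:**
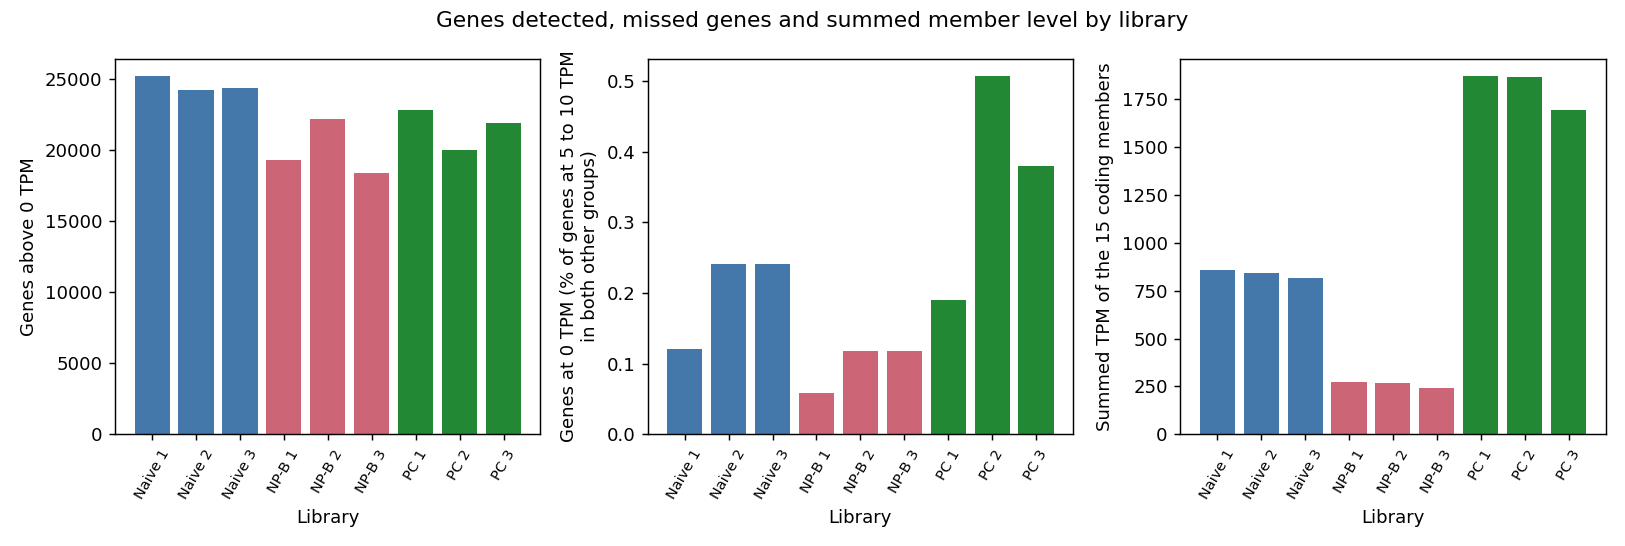
Bars give, for each library, the genes above 0 TPM, a percent of genes at 0 TPM, and the summed TPM of the 15 protein-coding members. The percent is among genes for which the lower of the means of the 2 other groups was 5 to 10 TPM, which the axis label words as both other groups. NP-B 2 has more genes than PC 2 (22176 against 19978), and the member sums, which the rule selected on, are 242 to 272 TPM in all NP-B libraries and 1692 to 1869 TPM in the PC libraries.

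Transcript length and shared sequence were compared as further properties that the rule did not use. The median relative length of the protein-coding members, from reads per TPM, was 1.18 times that of the tested genes, with a range from 0.361 (Rabac1) to 2.64 (Susd6). Of the protein-coding members, Dnajb2, Dusp4, Rabac1, Rhob, Ier2, Impdh1 and Pld3 shared none of their 31-base words with another gene. Jun shared 6.39% with its antisense transcript Junos, and since the libraries do not mark strand, reads of the 2 over that stretch cannot be told apart.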

How the data were processed

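RNA of 9 libraries (3 groups of 3) was measured after polyA capture and tagmentation. The authors pseudoaligned reads with kallisto and summed transcripts per gene symbol into the deposited TPM values. The authors ran voom on these estimates to obtain the deposited log2 values. The submitters' processing notes name kallisto, limma and mm10, and no versions, while the paper's reporting summary gives versions of kallisto and limma. The deposited tables exist with all genes (30317) and without 322 Ig genes (29995), and the latter was used. Reads per library (20.2 M to 38.6 M) were recovered from the log2 values, in which a TPM of 0 corresponds to 0.5 reads. No column belonged to another series.

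Members were found from group mean TPM. Tests used voom on TPM and limma 3.58.1 in R 4.3.3 over all 9 libraries, for 12892 genes with at least 1 TPM in at least 3 libraries, with Benjamini-Hochberg adjustment. The script was tested on simulated data. Ratios of group means add 1 TPM to each mean, which understates low genes. The members and lists were chosen with earlier results of these data known. Named genes were the 20 members with the largest dip, the 5 with the highest NP-specific B cell mean, 2 genes just inside and 2 just outside the fold, called members, and list members. Per1, Egr1, Nr4a1, Jund, Junb, Fos, Kdelr1, Wfs1 and the genes that share words with members were chosen after their values were seen. Promoters came from RefSeq (GRCm38.p6) and gene positions from GENCODE M21 (GRCm38). The CArG box was added after the members were seen. Python 3.11.15 and matplotlib 3.10.9 drew the plots. The alternatives were other scalings, offsets, filters and designs, and leaving out each library.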

Additional observations from a re-analysis of the deposited data

How the results depend on the processing

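The 20 members became 36 with median-of-ratios scaling, 38 with quantile normalised TPM, 39 with an offset of 0.1, 86 at a fold of 2 and 5 at a fold of 4. Of the 20, 13 were among the 36 and 17 among the 38. The full table with Ig genes kept gave 22 genes, of which 5 were members. Without the 2 Ig light chain variable genes, an alternative added after seeing the data, 18 remained. Leaving out 1 library gave 21 to 56 genes, the 56 on dropping NP-specific B cell replicate 2 and 42 on dropping plasma cell replicate 2, with at least 17 of the 20 members each time. The log2 dip turned negative only in the full table, for Ier2 (-0.0904), Gm10040 (-0.17) and Pld3 (-0.0493), where it was 0 for Gm20730, which is listed at 0 there, and was positive in 216 of 220 values. There the median of all genes tested moved to -1.40 for plasma cells minus naive B cells, from -0.47, and to 0.02 with median-of-ratios scaling.

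The members lower in plasma cells than in naive B cells rose from 0 to 7 of the 18 tested in the full table. Of 12324 genes tested there, 64.5% were called lower, so the rise is not particular to the members. Its cause was not tested. Among immediate-early genes, those higher in NP-specific than in naive B cells numbered 1 with a mean TPM of at least 10. Those higher in plasma cells than in NP-specific B cells numbered 4, and those lower 14, in the full table. Of all genes tested there, 3.41% were called higher and 59.7% lower. Among 34 quiescence genes, of which none was a member, 1 was higher and 9 lower in NP-specific than in naive B cells, and 6 higher and 15 lower in plasma cells than in NP-specific B cells, beside 8.13% and 10.4%, then 9.93% and 22.3%, of all genes tested. The 1 became 3 with median-of-ratios scaling, 0 with no filter, 2 with estimated counts and 0 to 4 on leaving out a library. The 6 became 3 in the full table and 3 with a mean TPM of at least 10. Of the ER genes, the 5 higher in NP-specific B cells became 8 with median-of-ratios scaling. The 4 lower became 2 with that scaling, with log2(TPM + 1) without weights and with a mean TPM of at least 10, and 2 to 4 on leaving out a library. Same-numbered libraries deviated with r from -0.075 to 0.068, and no source used here ties a number to a mouse. A replicate block moved the quiescence count of 1 to 2 and kept 6 members higher in plasma cells than in naive B cells. On leaving out a library, the counts higher in plasma cells were 6 to 8 of 20, the 8 on dropping plasma cell replicate 3.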

Other observations

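The rule's demand that no libraries overlap kept out 9 genes that passed its fold and level. Wfdc17 had 58.5, 59.8 and 63.0 TPM in naive libraries, 6.13, 6.26 and 8.64 TPM in NP-specific B cell libraries and 1.39, 0.509 and 62.4 TPM in plasma cell libraries. Gstm1, a glutathione transferase abundant in liver, had 10.8, 13.8 and 14.1 TPM, then 4.00, 1.62 and 6.45 TPM, then 2.17, 3.04 and 635 TPM. In both genes the plasma cell level rested on replicate 3, the library with 6381 TPM of hepatocyte markers. Among plasma cell libraries, replicate 3 was also highest for every listed macrophage or monocyte marker but Itgam. In replicates 1, 2 and 3, C1qb had 1.18, 0.747 and 15.9 TPM, Lyz2 2.85, 11.6 and 48.2 TPM and Itgam 4.94, 2.43 and 1.65 TPM. The part of either cell type in the levels of Wfdc17 and Gstm1 was not tested. RP24-350F17.4 had 73.8, 60.6 and 66.3 TPM in naive libraries, 2.44, 9.95 and 11.3 TPM in NP-specific B cell libraries and 492, 219 and 1.02 TPM in plasma cell libraries, low in plasma cell replicate 3 as Gm17472 and Gm20730 were. The other 6 (Gm29474, Gm8430, CH36-169F23.5, Gm28136, Gm11331 and Gm15878) had means of 2.03 to 4.60 TPM in NP-specific B cells. CH36-169F23.5 and Gm28136 were listed with equal group means (14.0, 2.03 and 6.94 TPM). These genes were chosen after their values were seen.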
